A study of Homo sapiens with 12 samples.

Results

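The unfolded protein response and the amino acid response were examined through 40 genes, listed by name as targets or parts of the ATF4, ATF6 and XBP1 programmes. The list was drawn up with earlier results of these data known, so counts set beside all genes only describe it. All 40 symbols matched an Ensembl identifier among the 60617 genes of the data, and all 40 passed the filter on low counts that left 17620 genes for testing. The samples were 12 RNA-seq libraries from the human gallbladder cancer line SNU308. Each culture received either the non-targeting control siRNA (NTC) or an siRNA against CEACAM6, siCEACAM6#2 or siCEACAM6#3, at 25 nM, and RNA was taken at day 3. There were 4 replicates per group, described as individual experiments. All groups were transfected, so no untransfected cells were compared, and the p-values measure the spread between samples of 1 cell line only. CEACAM6, the target, is an adhesion molecule anchored at the cell surface.

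Cells that accumulate unfolded proteins in the endoplasmic reticulum (ER) respond through the membrane sensors IRE1 (gene ERN1), PERK (EIF2AK3) and ATF6. IRE1 splices the XBP1 messenger RNA, ATF6 is cut to release a transcription factor, and both outputs raise chaperones and degradation factors. PERK phosphorylates the translation factor eIF2 alpha, as other kinases do when amino acids run short, and this favours translation of ATF4, which raises genes of amino acid supply and of feedback control.

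Some promoters of the listed genes carry short motifs that these factors are known to bind, and examples are shown to give the letters behind the grouping by motif further on, while 22 of the windows examined held none of the 4 motifs searched. Promoter windows of 250 bases before to 50 bases after the start came from RefSeq (GRCh38.p14), and 37 of the 40 genes had one. The ER stress element, read here as CCAAT, then 9 bases of any kind, then CCACG, is bound by ATF6 together with NF-Y. Searched on both strands, it was present in the windows of 7 listed genes (CALR, CANX, CRELD2, HSP90B1, HSPA5, PDIA6 and XBP1) and in 0.0769% of all 35116 promoters. Counted by gene, this was 0.0916% of the 27305 gene symbols with a promoter. In the following examples the fixed letters are in capitals, and each run is read 5′ to 3′ on the strand given.
HSPA5, chr9:125241386-125241414, minus strand: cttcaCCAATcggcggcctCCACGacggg
HSP90B1, chr12:103930211-103930239, plus strand: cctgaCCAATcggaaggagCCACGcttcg
HSP90B1, chr12:103930316-103930344, minus strand: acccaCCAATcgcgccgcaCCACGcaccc
XBP1, chr22:28800598-28800626, minus strand: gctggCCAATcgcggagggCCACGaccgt
PDIA6, chr2:10812848-10812876, minus strand: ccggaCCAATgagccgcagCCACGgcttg
CALR, chr19:12938379-12938407, minus strand: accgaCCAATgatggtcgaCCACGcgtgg

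A compact variant, ER stress element II, was read as ATTGG, then 1 base of any kind, then CCACG. It was present in HERPUD1, HYOU1 and SDF2L1 and in 0.0541% of all promoters, or 0.0696% of gene symbols. HYOU1 had 2 matches, and the one farther from the start overlapped its match to the XBP1 element TGACGTGG on the other strand. That element was found in 1 listed gene and in 0.729% of promoters, or 0.927% of gene symbols. The runs of HERPUD1 and HYOU1 are shown with the fixed letters in capitals.
HERPUD1, chr16:56932020-56932040, plus strand: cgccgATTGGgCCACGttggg
HYOU1, chr11:119057269-119057289, plus strand: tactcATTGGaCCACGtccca
HYOU1, chr11:119057375-119057395, plus strand: ctgggATTGGaCCACGtcacg

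The core of the C/EBP-ATF response element, TGATGNAA, is a known contact of ATF4 paired with a C/EBP factor. It was present in ASNS, ATF3, CHAC1, HERPUD1, SLC3A2 and SLC7A1 and in 3.62% of all promoters, or 4.46% of gene symbols. The 4 genes shown are those in which every siCEACAM6#2 sample lay above every NTC sample, and the fixed letters are in capitals.
ASNS, chr7:97872464-97872481, minus strand: aggcaTGATGaAActtcc
ATF3, chr1:212565211-212565228, plus strand: caggaTGATGgAAggctg
CHAC1, chr15:40953257-40953274, minus strand: aggagTGATGcAAcggca
HERPUD1, chr16:56931961-56931978, minus strand: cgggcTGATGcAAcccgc

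The total estimated count per sample was between 21799476 and 22059456. All 8 epithelial markers examined were expressed, with KRT19 at a median of 3215 TPM (a level corrected for transcript length and library depth) and MUC1 at 63.0 TPM, while PTPRC and KDR, which define leukocytes and endothelium, were at or near 0. The summed level of the 14 leukocyte, endothelial and fibroblast markers was 36.6 to 47.9 TPM in NTC, 35.5 to 52.5 after siCEACAM6#2 and 37.1 to 69.1 after siCEACAM6#3, most of it CD68. Without CD68 it was 6.61 to 7.39 TPM in NTC, 6.85 to 7.23 after siCEACAM6#2 and 7.24 to 12.9 after siCEACAM6#3. Of these markers, VWF fell by 0.44 on the log2 scale after siCEACAM6#2 (limma-voom adjusted p = 0.042) and CDH5 differed between siRNAs by 1.31 (limma-voom adjusted p = 0.016), both at low level. The epithelial marker MUC1 was higher after siCEACAM6#3 than after siCEACAM6#2 by 0.53 (limma-voom adjusted p = 0.025), a call that held in 6 of 12 fits with a library left out. The VWF call held in 3 of 12 fits with a library left out, and that of CDH5 was lost without siCEACAM6#2 replicate 3 or 4. CEACAM6 fell by 0.82 on the log2 scale after siCEACAM6#2 (limma-voom adjusted p = 2.7e-05) and by 0.46 after siCEACAM6#3 (limma-voom adjusted p = 0.015), and was higher after siCEACAM6#3 than after siCEACAM6#2 by 0.35 (limma-voom adjusted p = 0.016). Leaving out NTC replicate 2, 3 or 4, or replicate 3 of siCEACAM6#3, ended the siCEACAM6#3 call (limma-voom adjusted p up to 0.079), and leaving out replicate 3 of either siRNA ended the difference (up to 0.058). Mitochondrial genes took 11.8% to 12.9% of counts in NTC and 12.2% to 13.3% after siCEACAM6#2. After siCEACAM6#3 they took 12.5% in replicate 1 and 14.3% to 15.3% in the other 3 replicates. By this share siCEACAM6#3 replicate 1 stood apart from its group, so results that rest on it are also given without it. Over all genes tested it correlated with replicates 2, 3 and 4 of its group at 0.980, 0.985 and 0.982. Those replicates correlated among themselves at 0.983 to 0.984, so the correlation did not single out replicate 1. A chi-square of the count differences, averaged per gene, was 23.7, 8.38 and 20.1 between replicate 1 and replicates 2, 3 and 4. Among those replicates it was 9.47 to 13.4.

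In NTC cells the listed genes spanned a wide range of levels, compared between genes in TPM. The highest were the subunits of a large neutral amino acid exchanger, SLC7A5 at 968 ± 42 TPM (SD, n = 4) and SLC3A2 at 657 ± 53 TPM (SD, n = 4). The lectin chaperone CALR followed at 463 ± 3.5 TPM (SD, n = 4), then ATF4 at 384 and the chaperone HSP90B1 at 383 TPM, whose samples overlapped. PDIA3 was at 331 TPM and the chaperone HSPA5 (BiP) at 281 TPM. The lowest were the sensors and regulators, with ATF6 at 8.21, the co-chaperone DNAJB9 at 7.35, EIF2AK3 at 5.41, ERN1 at 4.07 and the lipoprotein receptor VLDLR at 1.18 TPM. In this order, 21 of the 39 neighbouring pairs had overlapping NTC samples.

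**Figure D1:**
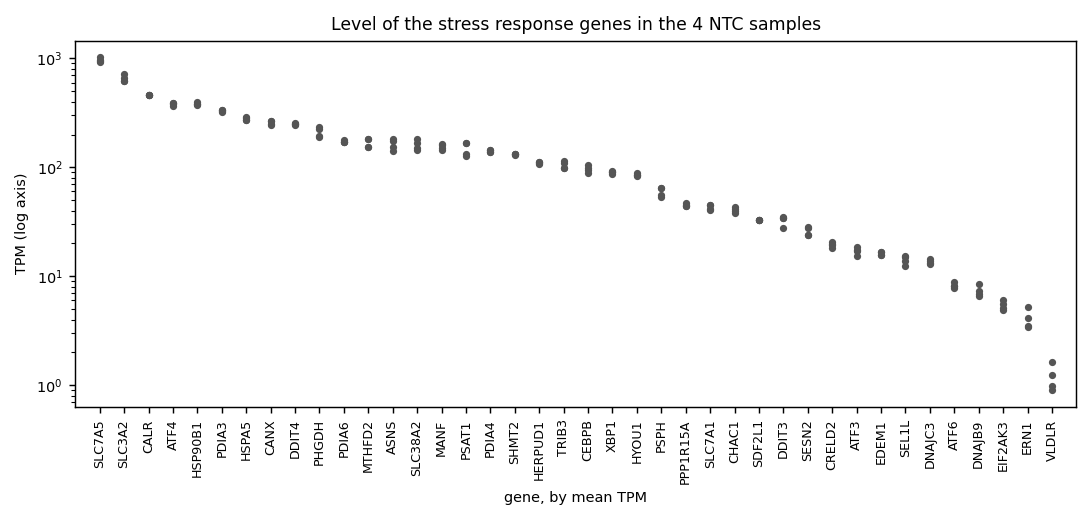
Level of the 40 stress response genes in NTC cells in TPM on a log axis (vertical), with the genes ordered by mean (horizontal) and each point 1 of the 4 NTC samples. Levels run from 968 TPM for SLC7A5 to 1.18 TPM for VLDLR, and neighbours in the order often overlap.

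The first comparison asked how the stress programme stood in cells after siCEACAM6#2 compared to NTC. In limma-voom the genes PPP1R15A, DNAJB9, ATF3 and DDIT3 rose, by 0.47 to 0.56 on the log2 scale, and no listed gene was called lower. Thus 4 of the 40 were called at a limma-voom adjusted p under 0.05, against 1.25% of all genes tested, and 0.613% in the higher direction. The median log2 fold change of the 40 was 0.08, beside 0.00 for all genes tested, and 33 of 40 lay above 0, compared to 50.1% of all genes. In 16 of the 40 genes every siCEACAM6#2 sample exceeded every NTC sample, against 5.34% of all genes, and in 1 (CALR) every sample lay below, against 5.42%. At an unadjusted p under 0.05 there were 15 higher and 1 lower, against 13.6% of all genes in either direction. DESeq2 called 10 of the 40, all higher, against 3.95% of all genes it gave an adjusted p. Limma-voom with sample weights called 11, of which 10 were higher and CALR was lower, against 6.36%. Both added ASNS, HSPA5, HYOU1, MANF, HERPUD1 and SEL1L to the same 4 genes. Left-out libraries moved the count of called genes between 3 and 7, and it was 7 both without siCEACAM6#3 replicate 1 and without siCEACAM6#3 replicate 4, which enter through the shared estimate of the spread. All genes called were then 319 and 364, in place of 221. RNA-seq of whole cultures does not separate a change in every cell from a change in some cells, nor fewer cells of a type from less RNA per cell.

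After siCEACAM6#3 compared to the same NTC samples, limma-voom called 0 of the 40 listed genes, against 0.0681% of all genes. At an unadjusted p under 0.05 there were 3 higher and 5 lower, against 12.5% of all genes in either direction. Of the other tools, edgeR called 0 and DESeq2 called 1 (DNAJB9), against 1.76% of all genes it gave an adjusted p. Limma-voom with sample weights called 2 (TRIB3 and DNAJB9), against 2.17%. The median log2 fold change was 0.00, with 20 genes above 0 and 20 below, beside 48.9% of all genes above 0. Samples did not overlap in 3 genes that were higher (PPP1R15A, DNAJB9 and PDIA4), against 2.99% of all genes, and in 1 that was lower (SHMT2), against 3.29%. Without siCEACAM6#3 replicate 1, TRIB3 and PHGDH were called, both lower, and the number of all genes called went from 12 to 258. No listed gene was called with any other library left out.

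The siRNAs were also compared directly. ATF3, PPP1R15A and TRIB3 were lower after siCEACAM6#3 than after siCEACAM6#2, by 0.34 to 0.48 on the log2 scale, so 3 of 40 were called, against 1.47% of all genes tested and 0.63% in the lower direction. The median log2 difference of the 40 was -0.12, beside 0.00 for all genes, and 34 of 40 lay below 0, whereas 48.8% of all genes lay above 0. In 10 genes every siCEACAM6#3 sample lay below every siCEACAM6#2 sample, against 3.34% of all genes, and no listed gene showed the opposite (3.34% of all genes). At an unadjusted p under 0.05 there were 18 genes, all lower, against 13.3% of all genes in either direction. DESeq2 called 8 and limma-voom with sample weights 4, all lower, against 4.01% and 3.18% of all genes. Without siCEACAM6#3 replicate 1 the limma-voom count rose to 11, all lower, with ASNS, DDIT3, HERPUD1, HSPA5, MTHFD2, PHGDH, SESN2 and SLC3A2 added. All genes called went from 259 to 651 in that fit. Leaving out any other library left only ATF3 and PPP1R15A called. Both comparisons with NTC use the same control samples, and the difference between siRNAs shares its samples with each, so the 3 sets of counts are not independent.

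**Figure D2:**
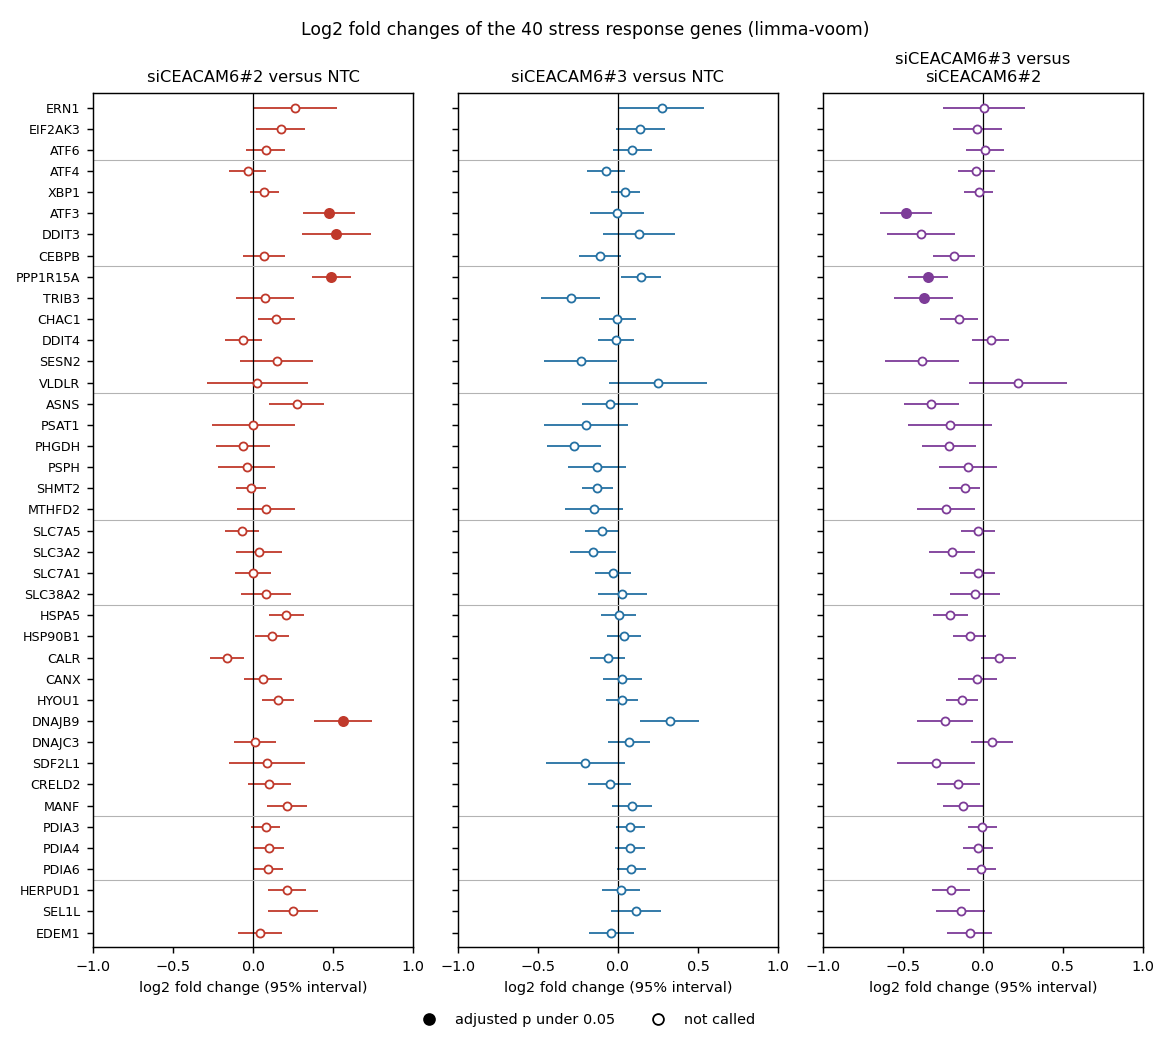
Log2 fold change (horizontal) of the 40 stress response genes (vertical, grouped by role between the grey lines) in the 3 comparisons, with 95% intervals from limma-voom as bars and filled points for genes called at an adjusted p under 0.05. After siCEACAM6#2, 33 of 40 points lie right of 0 and 4 are filled, after siCEACAM6#3 there are 20 on each side and 0 filled, and in the direct comparison 34 of 40 lie left of 0 and 3 are filled.

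Among the ER sensors limma-voom made no call in any comparison, and neither did edgeR or DESeq2. At an unadjusted p under 0.05 there was 1 gene of 3 after siCEACAM6#2 (EIF2AK3), against 13.6% of all genes, and 1 after siCEACAM6#3 (ERN1), against 12.5%. ERN1, EIF2AK3 and ATF6 had log2 fold changes of 0.26, 0.17 and 0.08 after siCEACAM6#2 and of 0.27, 0.14 and 0.09 after siCEACAM6#3. The smallest limma-voom adjusted p of the group was 0.30 after siCEACAM6#2 and 0.39 after siCEACAM6#3. The group mean relative to NTC was 0.07, 0.10, 0.29 and 0.22 in the siCEACAM6#2 samples and 0.15, 0.29, 0.20 and 0.03 in the siCEACAM6#3 samples, while the NTC samples lay between -0.04 and 0.03. ERN1 varied most of these 3 genes, at 13.4 to 15.9 CPM (counts scaled to library size) in NTC, 14.7 to 21.5 after siCEACAM6#2 and 15.7 to 22.7 after siCEACAM6#3.

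The transcription factors split into those that moved after siCEACAM6#2 and those that did not pass the test. ATF3 (chr1:212565334-212620777, GRCh38), a repressor induced under stress, was at 22.01, 23.8, 20.6 and 22.9 CPM in NTC. It was at 30.8, 31.6, 32.5 and 29.2 CPM after siCEACAM6#2 and at 22.6, 25.6, 21.7 and 19.6 CPM after siCEACAM6#3. Every siCEACAM6#2 sample lay above every sample of the other groups, whereas siCEACAM6#3 and NTC overlapped. The log2 fold change was 0.47 (SE 0.08, limma-voom adjusted p = 0.0057) after siCEACAM6#2. It was 0.00 (95% interval -0.17 to 0.16) after siCEACAM6#3, and the siRNAs differed by -0.48 (SE 0.08, limma-voom adjusted p = 0.0067).

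DDIT3 (CHOP; chr12:57516588-57521737), a C/EBP family factor of prolonged ER stress, was at 19.3, 19.1, 19.6 and 15.7 CPM in NTC. It was at 27.2, 27.1, 27.8 and 23.5 CPM after siCEACAM6#2 and at 24.0, 18.2, 21.8 and 17.2 CPM after siCEACAM6#3. The siCEACAM6#2 samples lay above NTC, and the siCEACAM6#3 samples overlapped both groups. The rise after siCEACAM6#2 was 0.52 on the log2 scale (SE 0.10, limma-voom adjusted p = 0.022), while siCEACAM6#3 gave 0.13 (SE 0.11, limma-voom adjusted p = 0.63). The call was lost without any 1 of the NTC replicates or without siCEACAM6#2 replicate 2 or 3, with the limma-voom adjusted p reaching 0.088 and the log2 fold change staying between 0.44 and 0.58. In the direct comparison the value was -0.39 (SE 0.10, limma-voom adjusted p = 0.075), which was called without siCEACAM6#3 replicate 1 (limma-voom adjusted p = 0.014). Leaving out any other library gave no call (limma-voom adjusted p up to 0.18). In GENCODE 44, exons of MARS1 on the opposite strand cover 27.2% of the DDIT3 exon bases, and MARS1, a tRNA synthetase, had an estimated count of 2583% of that of DDIT3. MARS1 itself showed a log2 fold change of 0.02 after siCEACAM6#2 and -0.13 after siCEACAM6#3. Whether the counting used strand is not given in the sources used here, so reads of the overlap may not have been told apart.

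ATF4 and XBP1, the factors controlled largely after transcription, stayed close to NTC in RNA level. ATF4 was at 377 ± 10.6 CPM in NTC, 369 ± 23.7 after siCEACAM6#2 and 358 ± 22.1 after siCEACAM6#3 (SD, n = 4 each), giving log2 fold changes of -0.03 and -0.07. XBP1 was at 106 ± 1.02, 111 ± 1.5 and 109 ± 3.37 CPM (SD, n = 4 each), with log2 fold changes of 0.07 and 0.04, and these gene counts do not separate its spliced form. CEBPB, a partner of these factors, had log2 fold changes of 0.07 and -0.11 and a difference between siRNAs of -0.18 (limma-voom adjusted p = 0.19).

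PPP1R15A (GADD34; chr19:48872212-48876059), the subunit that directs a phosphatase to eIF2 alpha and so ends the translational block, had the smallest adjusted p among the listed genes. It was at 79.6, 74.9, 78.5 and 77.2 CPM in NTC. It was at 108.1, 115.9, 115.3 and 96.9 CPM after siCEACAM6#2 and at 87.4, 89.1, 82.2 and 84.5 CPM after siCEACAM6#3. The 3 groups did not overlap, and siCEACAM6#3 lay between the other two. The log2 fold change was 0.49 (SE 0.06, limma-voom adjusted p = 0.0012) after siCEACAM6#2 and 0.15 (SE 0.06, limma-voom adjusted p = 0.33) after siCEACAM6#3, and the difference between siRNAs was -0.34 (SE 0.06, limma-voom adjusted p = 0.0078).

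TRIB3 (chr20:362835-397559), a pseudokinase that feeds back on ATF4 and binds AKT, followed another course. It was at 168.5, 161.8, 154.8 and 148.3 CPM in NTC. It was at 189.1, 153.3, 157.0 and 168.8 CPM after siCEACAM6#2 and at 156.2, 111.7, 126.3 and 125.5 CPM after siCEACAM6#3. Replicate 1 of siCEACAM6#3 lay within the NTC range and the other 3 lay below it. The log2 fold change was 0.07 (SE 0.09) after siCEACAM6#2 and -0.29 (SE 0.09, limma-voom adjusted p = 0.19) after siCEACAM6#3. The direct difference of -0.37 (SE 0.09) had a limma-voom adjusted p of 0.044. That call held in 1 of the 12 fits with a library left out, namely without siCEACAM6#3 replicate 1 (-0.46, limma-voom adjusted p = 0.0026), and the limma-voom adjusted p reached 0.13 in the others.

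SESN2 (sestrin 2), a leucine sensor upstream of mTORC1, was at 72.1, 71.2, 65.4 and 63.5 CPM in NTC. It was at 89.1, 71.9, 69.9 and 71.5 CPM after siCEACAM6#2 and at 73.5, 47.4, 59.9 and 53.2 CPM after siCEACAM6#3. Replicate 1 was the highest of its group in all 3 groups, as it was for TRIB3. For SESN2 replicate 1 of siCEACAM6#3 lay above the NTC range, while the other 3 of that group lay below it. The direct difference was -0.38 (SE 0.11, limma-voom adjusted p = 0.10), and it was called only without siCEACAM6#3 replicate 1 among the left-out libraries. CHAC1, a glutathione-degrading enzyme induced by ATF4, had log2 fold changes of 0.14 and 0.00. DDIT4, an mTORC1 inhibitor, had -0.06 and -0.01, and VLDLR had 0.03 and 0.25, the last with a 95% interval of -0.06 to 0.56.

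**Figure D3:**
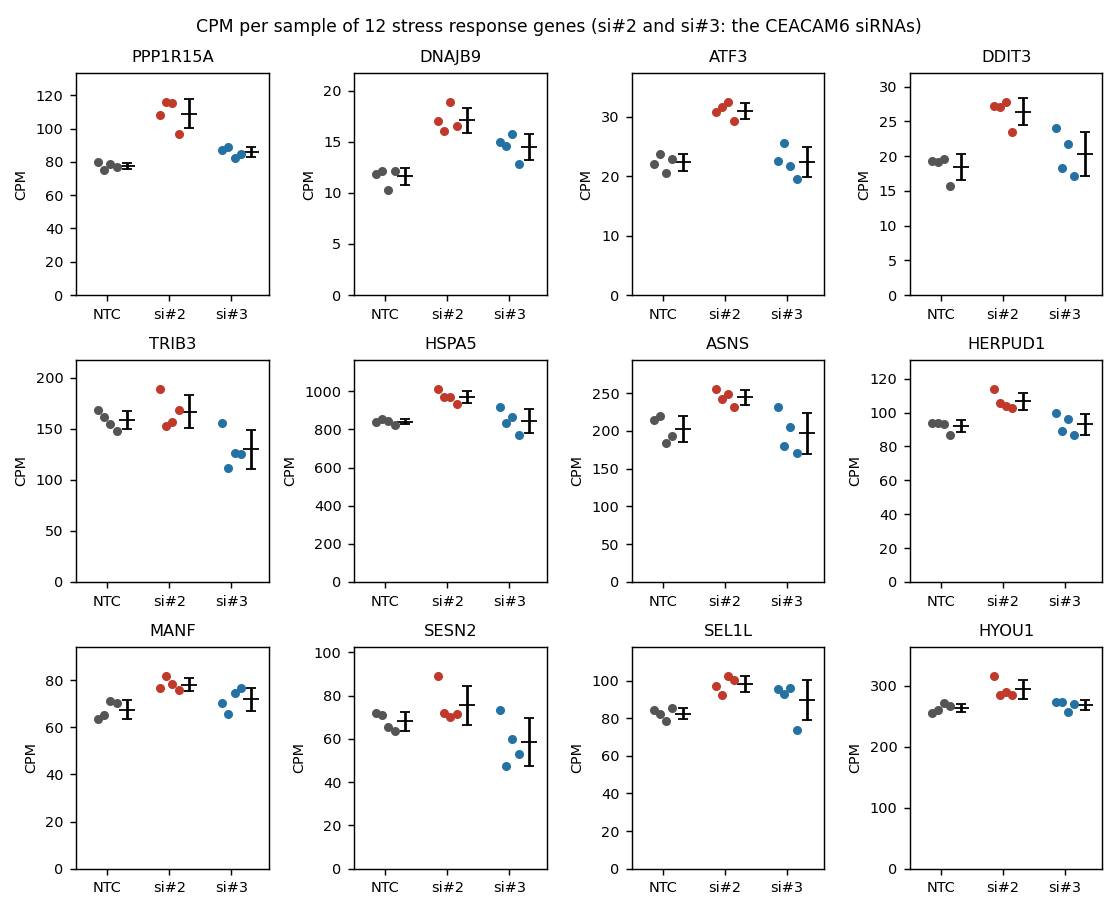
CPM (vertical, from 0) of the 12 stress response genes given sample by sample, in NTC, siCEACAM6#2 (si#2) and siCEACAM6#3 (si#3), with 1 point per sample and the mean ± SD of the 4 samples in black. For ATF3 the siCEACAM6#2 samples at 29.2 to 32.5 CPM stand above all others, and for PPP1R15A the 3 groups do not overlap.

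The enzymes of asparagine, serine and folate-dependent one-carbon synthesis gave no call in limma-voom or edgeR, with 2 of 6 at an unadjusted p under 0.05 after siCEACAM6#3 (PHGDH and SHMT2), against 12.5% of all genes, and 1 after siCEACAM6#2 (ASNS, called by DESeq2 and with sample weights), against 13.6%. Between the siRNAs all 6 were below 0, with 4 of 6 at an unadjusted p under 0.05, against 13.3% of all genes. After siCEACAM6#3 all 6 had negative log2 fold changes, from -0.28 for PHGDH (limma-voom adjusted p = 0.18), which starts serine synthesis, to -0.05 for ASNS. The group median was -0.14. After siCEACAM6#2 the same 6 genes had 3 values above 0 and 3 below. The group mean relative to NTC was 0.07, -0.34, -0.09 and -0.26 in siCEACAM6#3 replicates 1 to 4, beside -0.10 to 0.09 over the NTC samples, so 2 of the 4 siCEACAM6#3 samples lay below every NTC sample. In the same 4 samples mitochondrial genes took 12.5%, 15.3%, 14.3% and 14.6% of the counts, and the part of that share in these values was not tested.

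ASNS (asparagine synthetase), the textbook ATF4 target whose promoter run is shown above, was at 214.5, 219.4, 184.0 and 193.5 CPM in NTC. It was at 255.5, 242.6, 249.0 and 231.8 CPM after siCEACAM6#2 and at 231.1, 180.6, 204.9 and 170.6 CPM after siCEACAM6#3. The siCEACAM6#2 samples lay above all samples of the other groups, while siCEACAM6#3 overlapped NTC. Neither the value of 0.27 after siCEACAM6#2 (SE 0.08, limma-voom adjusted p = 0.12) nor the difference between siRNAs of -0.32 (SE 0.08, limma-voom adjusted p = 0.060) passed the test. Without siCEACAM6#3 replicate 1 both were called, at limma-voom adjusted p of 0.038 and 0.0049. No other left-out library gave either call, with limma-voom adjusted p up to 0.32 and 0.15. A long non-coding RNA annotated on the same strand covers 49.3% of the ASNS exon bases, and its estimated count was 5.38% of that of ASNS.

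The remaining enzymes act in serine and glycine synthesis (PSAT1, PSPH and SHMT2) and in the mitochondrial folate cycle (MTHFD2, besides SHMT2). SHMT2 was at 178 to 184 CPM in NTC and at 155 to 172 CPM after siCEACAM6#3, without overlap, but its log2 fold change of -0.13 had a limma-voom adjusted p of 0.26. PSAT1, MTHFD2 and PSPH had -0.20, -0.15 and -0.13 after siCEACAM6#3 and 0.00, 0.08 and -0.04 after siCEACAM6#2. In each of these 3 genes the samples of siCEACAM6#3 overlapped those of NTC.

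The amino acid transporters gave 0 calls in limma-voom, edgeR and DESeq2. After siCEACAM6#3, 1 of 4 (SLC3A2) had an unadjusted p under 0.05, against 12.5% of all genes. SLC7A5, SLC3A2, the cationic amino acid carrier SLC7A1 and the glutamine carrier SLC38A2 had log2 fold changes of -0.07, 0.04, 0.00 and 0.08 after siCEACAM6#2. After siCEACAM6#3 they had -0.10, -0.16, -0.03 and 0.03, and the smallest limma-voom adjusted p among these 4 genes was 0.36. Between the siRNAs SLC3A2 differed by -0.19 (limma-voom adjusted p = 0.19).

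**Figure D4:**
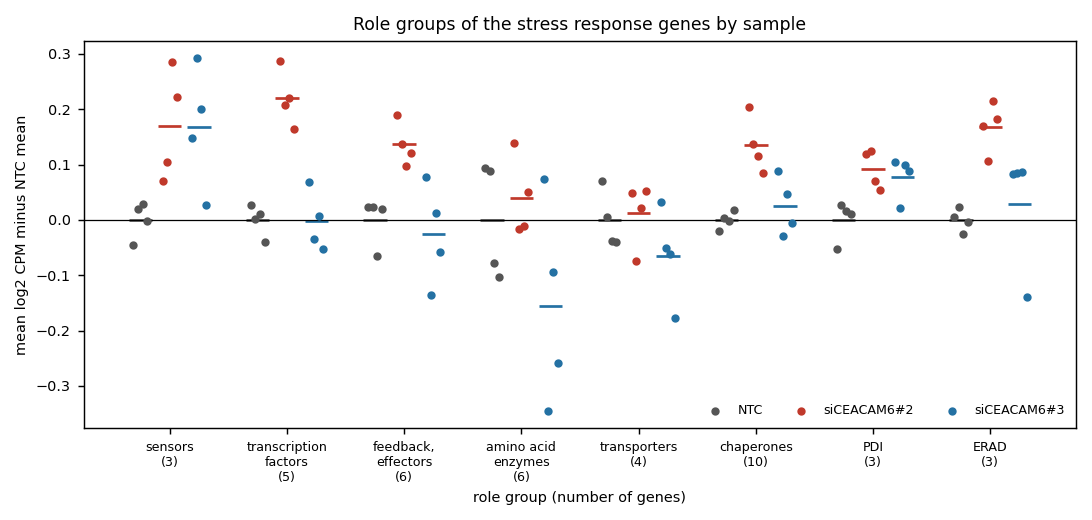
Mean log2 CPM relative to the NTC mean (vertical) over the genes of each role group (horizontal, number of genes in brackets), with 1 point per sample and a line at the mean of each group of 4. After siCEACAM6#2 every role group except the amino acid enzymes and transporters lies above all its NTC samples, with the transcription factors at 0.16 to 0.29. After siCEACAM6#3 the amino acid enzymes run from -0.34 to 0.07.

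Among ER chaperones and folding factors, limma-voom and edgeR called DNAJB9 higher after siCEACAM6#2 and none of the others. DESeq2 and limma-voom with sample weights also called HSPA5, HYOU1 and MANF higher, and the sample weights alone called CALR lower. DNAJB9 (ERdj4; chr7:108569867-108574850), a co-chaperone of HSPA5 and a classical XBP1 target that also restrains IRE1, was at 11.9, 12.2, 10.3 and 12.1 CPM in NTC. It was at 17.0, 16.1, 18.9 and 16.6 CPM after siCEACAM6#2 and at 14.98, 14.5, 15.8 and 12.8 CPM after siCEACAM6#3. The 3 groups did not overlap, after siCEACAM6#3 in the middle. The log2 fold change was 0.56 (SE 0.09, limma-voom adjusted p = 0.0050) after siCEACAM6#2 and 0.32 (SE 0.09, limma-voom adjusted p = 0.17) after siCEACAM6#3. The siRNAs differed by -0.24 (SE 0.08, limma-voom adjusted p = 0.19).

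HSPA5 (BiP), the main ATP-driven chaperone of the ER lumen, was at 838.5, 856.6, 846.2 and 822.5 CPM in NTC. It was at 1012, 971.3, 968.0 and 934.2 CPM after siCEACAM6#2 and at 918.4, 832.4, 862.9 and 768.7 CPM after siCEACAM6#3. The siCEACAM6#2 samples exceeded all others, and siCEACAM6#3 spread on both sides of NTC. The value of 0.21 after siCEACAM6#2 (SE 0.05, limma-voom adjusted p = 0.059) and the difference of -0.20 between siRNAs (SE 0.05, limma-voom adjusted p = 0.062) lay just outside the threshold. The first was called without siCEACAM6#3 replicate 1, 2 or 4 and the second without siCEACAM6#3 replicate 1, at limma-voom adjusted p down to 0.016 and 0.011. With other libraries left out neither was called, and the limma-voom adjusted p reached 0.18 and 0.16.

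MANF, a secreted factor that stabilises HSPA5 complexes, was at 63.4, 65.1, 71.3 and 70.4 CPM in NTC. It was at 76.6, 81.8, 78.4 and 75.9 CPM after siCEACAM6#2 and at 70.2, 65.8, 74.7 and 76.6 CPM after siCEACAM6#3. Samples of siCEACAM6#2 and NTC did not overlap, and the log2 fold change was 0.21 (SE 0.06, limma-voom adjusted p = 0.096). HYOU1, a nucleotide exchange factor of HSPA5, was at 255.9, 259.5, 271.0 and 267.2 CPM in NTC. It was at 315.9, 285.1, 289.5 and 284.5 CPM after siCEACAM6#2 and at 273.4, 272.7, 257.3 and 269.2 CPM after siCEACAM6#3. Its siCEACAM6#2 samples also exceeded all others, with a log2 fold change of 0.16 (SE 0.05, limma-voom adjusted p = 0.12).

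CALR ran the other way, at 610 to 646 CPM in NTC and 529 to 602 CPM after siCEACAM6#2, a log2 fold change of -0.16 (SE 0.05, limma-voom adjusted p = 0.14). Of the 24 alternatives, the fit with sample weights called it lower. Its membrane-bound relative CANX had 0.06 after siCEACAM6#2 and 0.03 after siCEACAM6#3. HSP90B1 (GRP94) had 0.12 and 0.04, and the co-chaperone DNAJC3 had 0.01 and 0.07. SDF2L1, which assists HSPA5 and DNAJB11, had 0.09 and -0.20, and CRELD2 had 0.10 and -0.05. Both had direct differences that missed the threshold, at -0.29 for SDF2L1 (limma-voom adjusted p = 0.26) and -0.15 for CRELD2 (limma-voom adjusted p = 0.30).

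The protein disulfide isomerases PDIA3, PDIA4 and PDIA6, which form and rearrange disulfide bonds, were above 0 with both siRNAs. The log2 fold changes were 0.08, 0.10 and 0.09 after siCEACAM6#2 and 0.08, 0.07 and 0.08 after siCEACAM6#3. All 3 had non-overlapping samples after siCEACAM6#2, against 5.34% of all genes higher, and PDIA4 also after siCEACAM6#3, against 2.99%. None was called by limma-voom, edgeR or DESeq2, the smallest limma-voom adjusted p being 0.32 and 0.44, and 2 of 3 had an unadjusted p under 0.05 after siCEACAM6#2, against 13.6% of all genes. The direct differences were between -0.03 and 0.00, with 95% intervals that together ran from -0.12 to 0.09.

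In ER-associated degradation, HERPUD1 and SEL1L had the larger values. HERPUD1, a scaffold of the HRD1 ubiquitin ligase with both an ER stress element II and a C/EBP-ATF core in the window shown above, was at 93.8, 93.7, 93.3 and 86.6 CPM in NTC. It was at 113.9, 105.9, 103.9 and 102.6 CPM after siCEACAM6#2 and at 99.8, 89.2, 96.3 and 86.7 CPM after siCEACAM6#3. The siCEACAM6#2 samples exceeded all others, with a log2 fold change of 0.21 (SE 0.06, limma-voom adjusted p = 0.078) and a direct difference of -0.20 (SE 0.06, limma-voom adjusted p = 0.10). The first was called without siCEACAM6#3 replicate 1 or 4 (limma-voom adjusted p down to 0.039), by DESeq2, with sample weights, with the replicate block, with a stricter filter and in the fit of the groups compared. The second was called by DESeq2 and without siCEACAM6#3 replicate 1 (limma-voom adjusted p = 0.033). With other libraries left out the limma-voom adjusted p reached 0.21 and 0.25.

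SEL1L, the adaptor of the same ligase, was at 84.1, 82.3, 78.3 and 85.1 CPM in NTC. It was at 97.0, 92.5, 102.5 and 100.4 CPM after siCEACAM6#2 and at 95.6, 92.8, 96.0 and 73.9 CPM after siCEACAM6#3. All samples after siCEACAM6#2 lay above NTC, as did 3 of 4 after siCEACAM6#3, replicate 4 lying below. The log2 fold changes were 0.25 (SE 0.07, limma-voom adjusted p = 0.11) and 0.11 (SE 0.07, limma-voom adjusted p = 0.55). The first was called by DESeq2, with sample weights, in the fit of the groups compared and without siCEACAM6#3 replicate 4 (limma-voom adjusted p = 0.011). Other left-out libraries gave a limma-voom adjusted p of up to 0.33. EDEM1, a mannosidase-like lectin that hands misfolded glycoproteins to degradation, had 0.04 and -0.04.

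**Figure D5:**
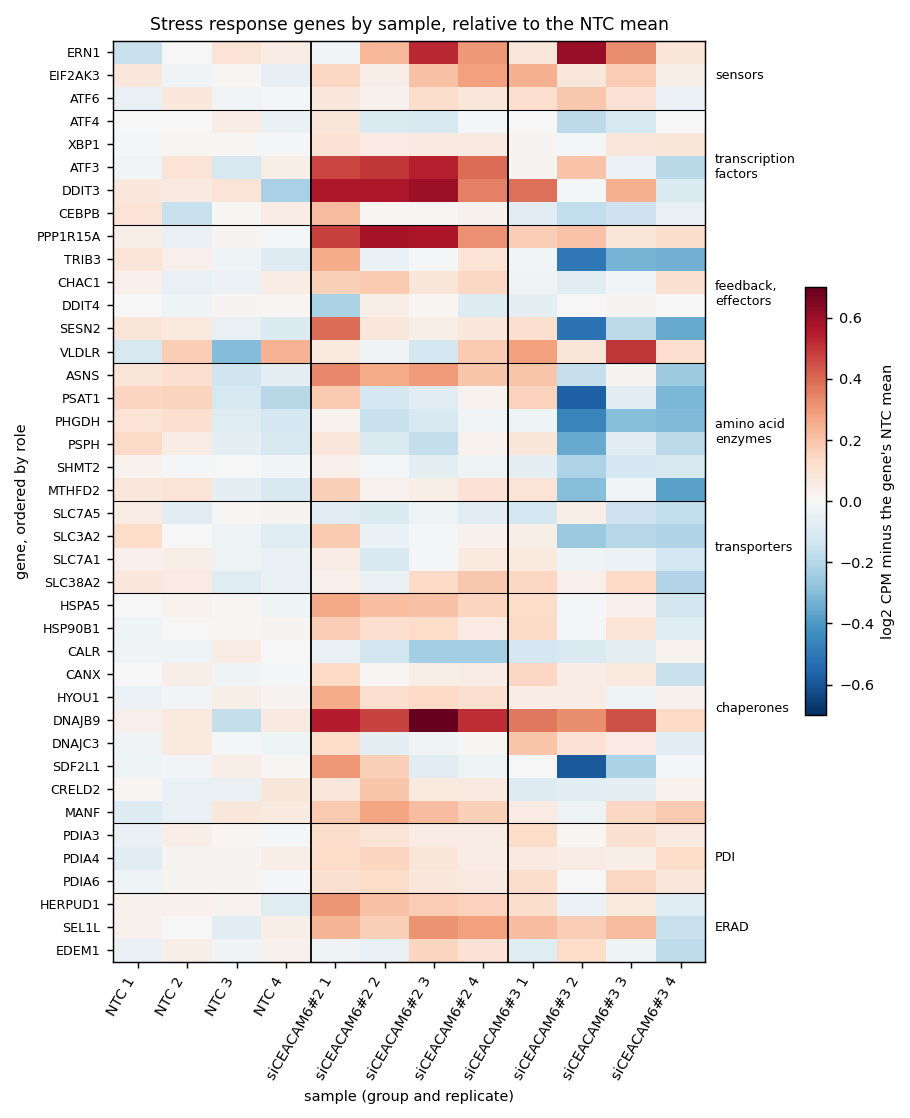
Log2 CPM of the 40 stress response genes (rows, ordered by role) in each of the 12 samples (columns) minus the gene's NTC mean, red for higher and blue for lower, with the largest value at 0.70 and the lowest at -0.59. ATF3, DDIT3, PPP1R15A and DNAJB9 are red in all 4 siCEACAM6#2 samples, and the amino acid enzymes are mostly blue in replicates 2 and 4 of siCEACAM6#3.

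Grouped by promoter motif, the 10 genes with an ER stress element of either kind had a median log2 fold change of 0.10 after siCEACAM6#2. Of these, 9 were above 0, against 50.1% of all genes, 6 had samples above NTC without overlap, against 5.34%, and CALR lay below, against 5.42%. After siCEACAM6#3 the median was 0.02. The 6 genes with a C/EBP-ATF core had a median of 0.18 after siCEACAM6#2, with 6 above 0 and 4 without overlap, and of -0.02 after siCEACAM6#3. The 22 genes whose window held none of the 4 motifs, among them DNAJB9, DDIT3 and PPP1R15A, had medians of 0.08 and 0.05, with 18 above 0 and 6 without overlap after siCEACAM6#2. Over all 37 genes with a window, 32 were above 0 and 15 had samples above NTC without overlap after siCEACAM6#2. The groups by motif were not tested against each other. The absence of a match says only that these letters are not in those 300 bases.

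A wider list of 113 further genes of the same pathways was described beside these, of which 111 were tested. After siCEACAM6#2, limma-voom called 2 higher and 1 lower, against 1.25% of all genes. DESeq2 called 6, against 3.95%, and sample weights gave 11, against 6.36%. After siCEACAM6#3 none of the 111 was called by limma-voom or edgeR, against 0.0681% of all genes in limma-voom, 2 were called by DESeq2, against 1.76%, and 4 with sample weights, against 2.17%. There 21 had an unadjusted p under 0.05 in limma-voom, against 12.5% of all genes. Between the siRNAs limma-voom called 2 higher and 2 lower, against 1.47%, DESeq2 called 5, against 4.01%, and sample weights gave 6, against 3.18%. Without siCEACAM6#3 replicate 1 the limma-voom counts became 3 calls after siCEACAM6#2, 2 after siCEACAM6#3 and 10 between the siRNAs. In that fit all genes called were 319, 258 and 651, in place of 221, 12 and 259. Over all left-out libraries the counts of the wider list ran from 1 to 3, 0 to 2 and 1 to 10. TRIB1, a pseudokinase related to TRIB3, rose after siCEACAM6#2 by 0.50 (SE 0.08, limma-voom adjusted p = 0.0051) and was lower after siCEACAM6#3 than after siCEACAM6#2, with a difference of -0.37 (limma-voom adjusted p = 0.024). ERP44, which retains proteins in the early secretory pathway, rose after siCEACAM6#2 by 0.24 (SE 0.05, limma-voom adjusted p = 0.022). WFS1, an ER membrane protein that restrains ATF6, fell by 0.28 after siCEACAM6#2 (SE 0.06, limma-voom adjusted p = 0.029) and differed between siRNAs by 0.25 (limma-voom adjusted p = 0.045). The rise of TRIB1 held in all 12 fits with a library left out. That of ERP44 was lost without any 1 of the NTC replicates or siCEACAM6#2 replicate 2 or 3 (limma-voom adjusted p up to 0.091), and the fall of WFS1 without any of the same 6 or siCEACAM6#2 replicate 4 (limma-voom adjusted p up to 0.12). The difference between siRNAs of WFS1 held only without siCEACAM6#3 replicate 1 or 3 among the 12, and that of TRIB1 was lost in 4, without siCEACAM6#2 replicate 1, 3 or 4 or siCEACAM6#3 replicate 3.

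CREB3L1, an ER-anchored factor processed like ATF6, was higher after siCEACAM6#3 than after siCEACAM6#2 by 0.43 (SE 0.08, limma-voom adjusted p = 0.014). BBC3 (PUMA), a pro-apoptotic target of DDIT3 and p53, was lower, with a difference of -0.40 (SE 0.09, limma-voom adjusted p = 0.031). The CREB3L1 call was lost without siCEACAM6#2 replicate 3 (limma-voom adjusted p = 0.063), and that of BBC3 without NTC replicate 3, siCEACAM6#2 replicate 1, 2 or 4, or siCEACAM6#3 replicate 2 or 3 (limma-voom adjusted p up to 0.10). Among the 12 tRNA synthetases, also ATF4 targets, none was called against NTC by limma-voom, edgeR or DESeq2, with medians of 0.04 after siCEACAM6#2 and -0.04 after siCEACAM6#3, and the smallest limma-voom adjusted p was 0.34 and 0.38. The unadjusted p was under 0.05 in 1 of them with each siRNA, against 13.6% of all genes after siCEACAM6#2 and 12.5% after siCEACAM6#3. Likewise none of the 12 cytosolic heat shock genes was called by these tools against NTC, with medians of -0.03 and -0.12 and a smallest limma-voom adjusted p of 0.46 and 0.25. Of these 12, 0 and 3 had an unadjusted p under 0.05, against the same 13.6% and 12.5% of all genes.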

How the data were processed

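Poly(A) RNA of 12 SNU308 samples (3 groups of 4) was sequenced. Per the labels and the study's methods, the authors trimmed reads with Trim Galore 0.6.4 and quantified them with kallisto against GENCODE transcripts of GRCh38.p13. They deposited expected (estimated) counts and TPM values per gene, 1 file of each per sample. Kallisto shares ambiguous reads between transcripts, and 69.3% of the deposited expected counts above 0 were not whole. The labels and the methods differ on read layout (paired-end 100 bases or single-end 50 bases) and transfection reagent.

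Here, expected counts were rounded, filtered with filterByExpr (17620 genes, 99.9% of counts) and scaled by TMM factors (0.975 to 1.02). They were fitted with limma-voom (R 4.3.3, limma 3.58.1, edgeR 4.0.16) in 1 model of 3 group means, adjusting p by Benjamini-Hochberg over all genes tested. A gene was called at an adjusted p under 0.05. CPM uses TMM-scaled libraries. No set test was run. The procedure was tested on simulated data. Totals of 21799476 to 22059456 make counting error small for genes of high count. It is larger for low genes such as VLDLR, at a mean estimated count of 77. DNAJB9, DDIT3 and ATF3, at 316, 477 and 554, also have more of it than the high genes. DESeq2 1.42.0, edgeR's quasi-likelihood test, sample weights, a replicate block, other filters, scalings and units, a fit of only the groups compared, and left-out samples were alternatives.

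The 40 genes, the wider list and the markers were chosen with earlier results of these data known. Every sample's value was given for genes called in any comparison and, up to 12 genes in all, for those next in smallest adjusted p, and called genes of the wider list were named. Positions came from GENCODE 44 and promoters from RefSeq, which gave none here for PDIA3, PSPH and SHMT2.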

Additional observations from a re-analysis of the deposited data

Results flagged for a closer look

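The siRNAs differed in the fit across all genes for PPP1R15A (log2 difference of siCEACAM6#3 versus siCEACAM6#2 -0.34, limma-voom adjusted p = 0.0078), ATF3 (-0.48, limma-voom adjusted p = 0.0067) and TRIB3 (-0.37, limma-voom adjusted p = 0.044). All 4 siCEACAM6#3 samples lay below all siCEACAM6#2 samples for the first 2 genes, and the groups overlapped for TRIB3, whose call held in 1 of 12 fits with a library left out.

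Among 120 groups of 4 values (40 genes in 3 groups), 11 held a sample whose distance to its nearest neighbour, as a share of the range, passed Dixon's 95% critical value, and chance marks about 1 in 20 groups. In 4 of them siCEACAM6#2 replicate 1 was the highest of its group, with SESN2 at 89.1, HYOU1 at 315.9, CEBPB at 147 and XBP1 at 113 CPM. In siCEACAM6#2 replicate 2, CRELD2 was the highest at 21.6 CPM. In siCEACAM6#2 replicate 4, DDIT3 was the lowest at 23.5 CPM, and in siCEACAM6#3 replicate 4 SEL1L was the lowest at 73.9 CPM.

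In NTC, replicate 4 was the lowest for DDIT3 at 15.7 and for HERPUD1 at 86.6 CPM. NTC replicate 3 was the lowest for DNAJB9 at 10.3 CPM, and NTC replicate 2 was the highest for DNAJC3 at 61.8 CPM.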

How the results depend on the processing

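The rise of PPP1R15A with siCEACAM6#2 was called in all 24 alternatives, and those of ATF3 and DNAJB9 were lost only in the 2 fits on log2 TPM. Over 168 values of called genes none changed direction and 30 lost the call, 15 of them for TRIB3 between the siRNAs and 8 for DDIT3. The PPP1R15A difference between siRNAs was lost only in the fit of the groups compared. For siCEACAM6#2 versus NTC, the listed genes called were 4, with DESeq2 10, with sample weights 11, on log2(TPM + 1) and log2(TPM + 0.1) 1 each, with the groups compared alone 9, and with 1 library left out 3 to 7. All genes called were 221, then 534, 1120, 5, 6 and 600, and 49 to 364 with 1 library left out. For siCEACAM6#3 versus NTC, the listed genes were 0, with DESeq2 1, with sample weights 2, and 0 to 2 with 1 library left out. All genes were 12, then 220 and 382, with no filter 24, on either TPM scale 4, and 2 to 258 with 1 library left out. For siCEACAM6#3 versus siCEACAM6#2, the listed genes were 3, with DESeq2 8, with a stricter filter 6, on either TPM scale 1, with the groups compared alone 1, and 2 to 11 with 1 library left out. All genes were 259, with DESeq2 556, with sample weights 560, on the TPM scales 49 and 53, with the groups compared alone 57, and 83 to 651 with 1 library left out. Leaving out siCEACAM6#3 replicate 1 gave the highest of these counts, 258, 651 and 11, replicate 3 of that group gave the 2 and replicate 4 the 364, while siCEACAM6#2 replicate 3 gave the 49 and 83. The cause was not tested, except that leaving out a sample also lowers the number of samples. Scaling by library size alone gave 91 higher and 126 lower genes with siCEACAM6#2 in place of 108 and 113, and 112 higher and 121 lower between the siRNAs in place of 148 and 111. Scaling by library size alone left 30 of the 40 listed genes above 0 with siCEACAM6#2 in place of 33, 15 with siCEACAM6#3 in place of 20, and 4 between the siRNAs in place of 6. Median shifts of all genes stayed under 0.1 in every setting.

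Replicate numbers are shared by the groups in the labels. Over all genes tested, same-number samples did not deviate together (2 of 12 correlations over 0.1, from -0.05 to 0.18). The numbers were therefore not taken as pairs in the main fit. In some listed genes, such as TRIB3 and SESN2, replicate 1 was nevertheless the highest of its group in all 3 groups, while in others, such as ATF3, it was not. The mean of the amino acid enzymes was also highest in replicate 1 of each group, at 0.09 in NTC, 0.14 after siCEACAM6#2 and 0.07 after siCEACAM6#3. With the replicate block, 6 listed genes were called with siCEACAM6#2, 0 with siCEACAM6#3 and 8 between the siRNAs. All genes called were then 284, 87 and 349, in place of 221, 12 and 259.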
